A study of Homo sapiens with 4 samples.

Results

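The genes described here are 10 messenger RNAs long reported as bound or stabilised by IGF2BP proteins: MYC, HMGA1, HMGA2, LIN28B, CD44, CCND1, CCND3, CDK6, IGF2 and EIF4EBP2. They were taken by symbol from the 58302 Ensembl genes measured in 4 RNA-seq libraries of T24, an established human line from a urothelial (bladder) carcinoma. The groups were 2 libraries labelled control and 2 labelled IGF2BP3 knockout. The knockout cells are described as a stable line made with CRISPR/Cas9. Whether that line is 1 clone, what the control cells carry and whether replicates were grown apart is not stated, so that p-values measure a spread that may be technical. Of the 10 genes, 9 had a mean FPKM (fragments per kilobase of transcript, relative to library depth) of at least 1 over the libraries and were tested, among 11463 genes in all.

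IGF2BP proteins are cytoplasmic RNA-binding proteins with RRM and KH domains that hold mRNAs in ribonucleoprotein granules, where they are described as protecting them from decay and steering their translation. Many of their sites carry N6-methyladenosine (m6A) in a GGAC core. Their classical targets are growth genes of fetal tissue and tumours: a transcription factor (MYC), chromatin proteins (HMGA1, HMGA2), an inhibitor of let-7 microRNA maturation (LIN28B), cell cycle drivers (CCND1, CCND3, CDK6), a surface receptor (CD44), a growth factor (IGF2) and a repressor of cap-dependent translation (EIF4EBP2). For HMGA2 and LIN28B the described protection is from let-7, whose family members pair through a shared seed with sites in 3′ UTRs.

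The let-7 matches in the members' 3′ UTRs are shown because let-7 is the described counterpart of IGF2BP binding on HMGA2 and LIN28B, the members with the most matches. The mature let-7a sequence is from RefSeq (GRCh38.p14), with its seed, bases 2 to 8, in capitals. The same seed is in all 9 family members found there, let-7a to let-7g, let-7i and miR-98. Below it, 22-base stretches of GENCODE 29 transcripts (hg38, plus strand) have the 7 bases complementary to that seed, CTACCTC, in capitals. The sites lie in the 3′ UTR exon of each gene's principal transcript and are numbered from the stop codon.
let-7a-5p: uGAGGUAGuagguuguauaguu
HMGA2 site 1: ccaacgttcgatttCTACCTCa
HMGA2 site 2: cccactactcaataCTACCTCt
HMGA2 site 3: tgacttgcaaagacCTACCTCc
HMGA2 site 4: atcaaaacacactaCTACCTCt
LIN28B site 1: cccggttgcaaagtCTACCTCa
HMGA1 site 1: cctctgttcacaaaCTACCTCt
EIF4EBP2 site 1: ctgaatttctctccCTACCTCc

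The first HMGA2 site is at chr12:65963299-65963320, its seed match beginning 21 bases after the stop codon, and the last is at chr12:65965799-65965820, 2521 bases after it. The LIN28B site shown is the first of 4 (chr6:105078813-105078834). The HMGA1 site is at chr6:34245830-34245851 and the EIF4EBP2 site at chr10:70422953-70422974. HMGA2 held 4 matches in a 3′ UTR of 3003 bases. Among the 2010 genes with a 3′ UTR of 0.8 to 1.25 times that length, 14.7% held a match and 0.1% held as many. LIN28B held 4 in 4549 bases, a number reached by 0.23% of 1288 3′ UTRs of like length. HMGA1 and EIF4EBP2 held 1 each, where 8.6% and 32.2% of 3′ UTRs of like length held any, and CD44, CCND1, CCND3, CDK6 and IGF2 held none. Only the transcript strand was searched, and the 3′ UTR of MYC was not. Across 18629 protein-coding genes, 8.7% had a match. A match of letters is not a site of binding, and let-7 itself was not analysed here.

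The GGAC core was in every one of the 9 mRNAs searched and in 99.3% of all mRNAs, so its presence sets none of them apart. Its density ran from 1.09 per kilobase in LIN28B and 1.55 in CDK6 to 4.71 in CD44, around a median of 3.84 over all genes.

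IGF2BP3 RNA was near absent from the knockout libraries, with 27 and 171 reads in controls 1 and 2 against 0 and 1 in knockouts 1 and 2 (FPKM 2.94 and 21.5 against a listed 0 and 0.190). IGF2BP1 stood at FPKM 12.6 and 12.3 (controls) versus 19.2 and 14 (knockouts), and IGF2BP2 at 43.4 and 99.3 against 37.4 and 86.8, so both paralogs were present in all 4 libraries. Read totals worked back from the FPKM lay between 811823 (knockout 1) and 2162179 (control 1). Of all genes tested, 49.4% were listed at 0 in some library. KRT8, KRT18 and VIM were at FPKM 172 or above in every library. The 4 tested of the 10 T24 markers (these and KRT7) were higher in both knockouts than in both controls. Of all genes tested, 12.1% were apart in that direction. The list summed to FPKM 617 and 746 in controls and 1770 and 1540 in knockouts. The largest part of each sum was KRT8, at 266 and 397 in controls and 1140 and 816 in knockouts. The part of these differences in the results that follow was not tested. EPCAM, CDH1, KRT5, UPK2 and UPK3A were at 0 in every library and GATA3 at 0 in 3 of 4, so these epithelial and urothelial markers were absent or nearly so. All leukocyte (6) and red blood cell (3) markers were at 0, while endothelial and fibroblast lists were above 0 only for CDH5 (2.72 in control 2), COL1A1 (14.9 in control 1 and 6.59 in knockout 2) and COL1A2 (0.135 in knockout 2).

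None of the 9 tested members passed the threshold between knockout and control. The test was limma on log2(FPKM + 0.5) over all 11463 genes, with Benjamini-Hochberg adjustment, and it called 10 genes, or 0.0872% of those tested. Adjusted p-values of the members ran from 0.955 to 0.998. The knocked-out gene itself, IGF2BP3, did not pass either, with a log2 difference of −3.89 ± 2.83 (SE; limma adjusted p = 0.955). A member that did not pass is therefore not shown to be unchanged. At an unadjusted p under 0.05, 2 of the 9 stood out, CCND3 higher and CCND1 lower in the knockout, against 3.91% of all genes, and limma-voom on the recovered reads called 0 members too. By fitted value 3 members were higher and 6 lower (48.2% of all genes were higher), with a median log2 difference of −0.13 against −0.08 over all genes. The members' median was 0.46 without knockout 1, −0.45 without knockout 2, −0.02 without control 1 and −0.22 without control 2, and 0.03 under limma-voom, so its sign depended on single libraries. Knockout and control libraries did not overlap for CCND3 and IGF2 (higher, as for 12.1% of all genes) and for CCND1 (lower, as for 14.4%). In bulk RNA, fewer cells of a kind and less RNA per cell cannot be told apart. In the fit the SE of a gene came from genes of like level, and its own replicates carried no weight in it.

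**Figure D1:**
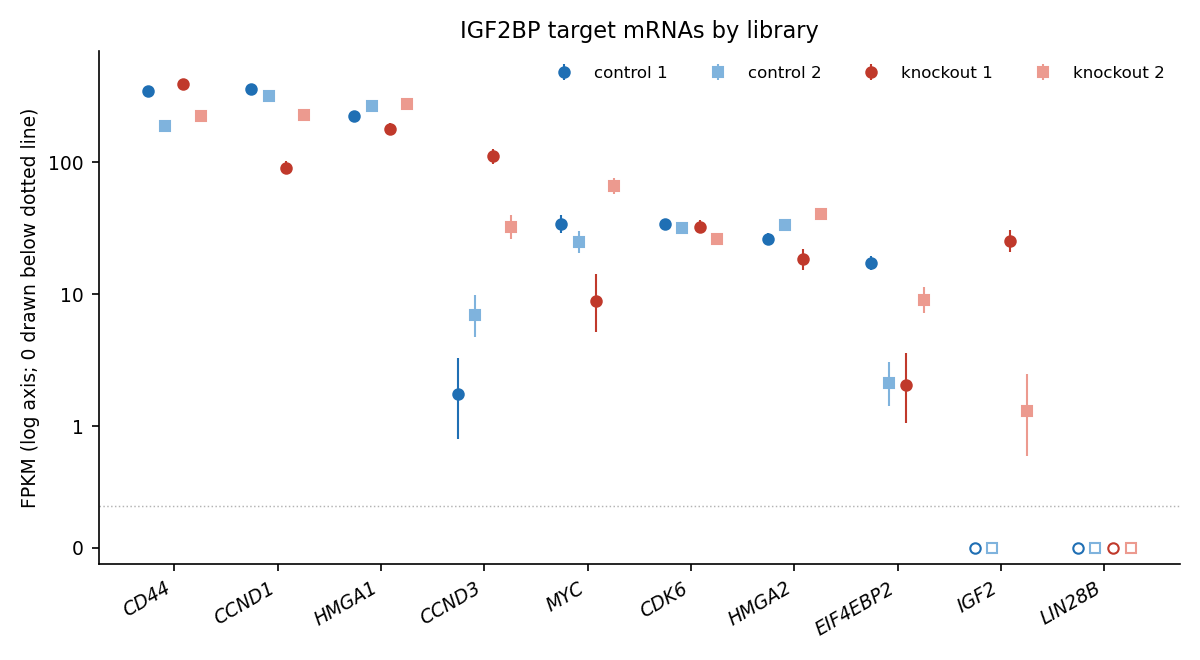
FPKM of the 10 target mRNAs (log axis, genes ordered by their mean) in control 1, control 2, knockout 1 and knockout 2, with exact 95% Poisson intervals of the reads as bars (counting error only) and open symbols for a listed 0. CCND3 and IGF2 were higher in both knockouts and CCND1 was lower, LIN28B was at 0 in all libraries, and the 2 knockouts lay on opposite sides of both controls for MYC.

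By mean FPKM over the 4 libraries, CD44 (287), CCND1 (248) and HMGA1 (237) came first, and the ranges of neighbours among them overlapped. CCND3, MYC, CDK6 and HMGA2 followed at 37.9, 33.6, 31.0 and 29.7, again with overlapping ranges between neighbours. EIF4EBP2 (7.65) and IGF2 (6.67) overlapped as well, and LIN28B was at 0. The gaps between these sets held between neighbours in the order, HMGA1 (lowest 179) over CCND3 (highest 111) and HMGA2 (lowest 18.4) over EIF4EBP2 (highest 17.3), but not between all members, since CCND1 in knockout 1 (91.2) lay below CCND3 there. In both controls CCND1 was the most abundant member, and in knockout 1 it stood behind CD44, HMGA1 and CCND3.

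The D-type cyclins differed in opposite directions by fitted value, and neither passed the threshold. CCND1 encodes cyclin D1, which activates CDK4 and CDK6 to pass the restriction point of G1, and CCND3 encodes its homologue cyclin D3. CCND1 had FPKM of 359 and 316 (controls) versus 91.2 and 227 (knockouts), from 3343, 2550, 319 and 1211 reads. Both knockouts lay below both controls, and knockout 1 lay furthest below. The log2 difference was −1.23 ± 0.56 (SE; limma adjusted p = 0.955), and it was −0.57 without knockout 1 and −1.88 without knockout 2. Of all genes tested, at any level, 54.2% had a fitted difference at least as large in either direction. The knockouts differed 2.48-fold from each other, the controls 1.13-fold.

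CCND3 had FPKM of 1.74 and 6.92 (controls) versus 111 and 32.3 (knockouts). Its values stand for 9 and 31 control reads and for 215 and 96 reads of the shallower knockouts. The lower knockout lay above the higher control, with exact 95% counting intervals of 26.2 to 39.5 and 4.70 to 9.82 FPKM. The log2 difference of 3.89 ± 1.52 (SE; limma adjusted p = 0.955) stayed between 3.01 and 4.77 with any 1 library left out, and 4.8% of all genes tested had a fitted difference at least as large. Replicates of CCND3 differed 3.98-fold within the controls and 3.42-fold within the knockouts. Its 2 processed pseudogenes were at 0 in all libraries.

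Within a library, FPKM of CCND1 was 206 and 45.7 times that of CCND3 in the controls, 0.825 times in knockout 1 and 7.01 times in knockout 2. The summed FPKM of both cyclins was 361 and 323 (controls) versus 202 and 259 (knockouts). In the controls nearly all of the sum was CCND1 (359 and 316). The lower sum and the smaller excess of CCND1 in both knockouts thus largely restate the single-gene values and are no further result. LTO1, which overlaps CCND1 on the opposite strand, had at most FPKM 10.1 in any library. The strand setting of the counting is not given in the sources used here. CCND1 lies at chr11:69641087-69654474 on the plus strand and CCND3 at chr6:41934933-42050357 on the minus strand of hg38.

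CDK6, the kinase partner of D cyclins, varied least of the tested members. It had FPKM of 33.9 and 31.6 (controls) versus 32.5 and 26.0 (knockouts), from 851, 687, 306 and 374 reads, and its highest library was 1.31 times its lowest. The groups overlapped. Its within-group SD, 0.17 on the log2 scale, was smaller than that of all but 1.37% of the 1967 genes with a mean within 1.5-fold of its own, whose median was 1.31. The fitted log2 difference was −0.17 ± 1.15 (SE), an SE that reflects those other genes, and it ranged from −0.33 to −0.01 with 1 library left out. Of the genes overlapping it, RNU6-10P was at FPKM 30.3 in control 1 only and CDK6-AS1 at 0.

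**Figure D2:**
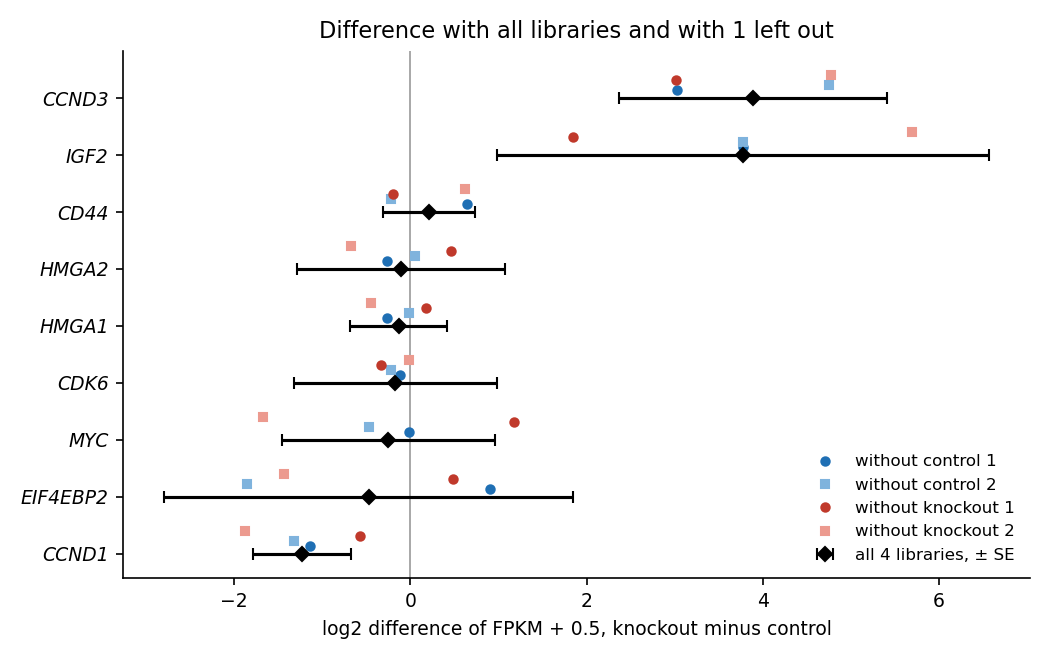
Fitted log2 difference of FPKM + 0.5, knockout minus control, for the 9 tested members (black diamonds, bars are SE) and with each library left out (coloured symbols). For CCND3, IGF2 and CCND1, whose groups do not overlap, leaving out a library could not turn the sign. CDK6 lay between −0.33 and −0.01, and MYC, HMGA1, HMGA2, CD44 and EIF4EBP2 crossed 0 in at least 1.

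MYC, the transcription factor whose coding region holds a classical IGF2BP binding element, had knockouts on both sides of the controls. Its FPKM was 34.2 and 24.9 in the controls, 8.85 in knockout 1 and 66.5 in knockout 2. The knockouts thus held both the lowest and the highest value and enclosed the controls. The 2 knockouts differed 7.51-fold from each other, from 17 and 195 reads with exact 95% intervals of 5.16 to 14.2 and 57.5 to 76.5 FPKM, whereas the controls differed 1.38-fold. The fitted log2 difference of −0.25 ± 1.21 (SE) became 1.17 without knockout 1 and −1.67 without knockout 2. The mean FPKM pointed the other way, at 29.5 in the controls and 37.7 in the knockouts.

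HMGA1 and HMGA2 encode AT-hook proteins that bend DNA and open chromatin in fetal and tumour cells. HMGA1 had FPKM of 224 and 267 (controls) versus 179 and 277 (knockouts), and HMGA2 had 26.4 and 33.2 against 18.4 and 40.8. For both, the knockouts enclosed the controls, with knockout 1 lowest and knockout 2 highest, as for MYC. The log2 differences were −0.13 ± 0.55 and −0.11 ± 1.18 (SE), and both were above 0 without knockout 1, at 0.18 and 0.46. HMGA2, with 4 let-7 matches, and HMGA1, with 1, thus differed between the groups by less than the knockouts differed from each other. Within each library HMGA1 was 6.78 to 9.73 times as abundant as HMGA2 per length. HMGA1 has 8 copies named as pseudogenes. Of these, HMGA1P4 was at FPKM 216 in control 1 and at 0 elsewhere. It is annotated as antisense, not as a processed pseudogene, and whether its reads came from HMGA1 was not tested. Reads could be split between such copies, so that the HMGA1 values are uncertain to that extent. HMGA2 (chr12:65824131-65966295) was scaled to an 8094-base transcript, longer than the 4473 bases of its principal transcript, which understates its level where the shorter one is used. Of 4 genes overlapping HMGA2, the sense intronic ENSG00000277945 was at FPKM 110 in knockout 1 only, HMGA2-AS1 at 5.09 in control 2 only and RPSAP52 at 4.23 in knockout 2 only.

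LIN28B, whose protein blocks maturation of let-7, had 0 reads in all 4 libraries. By counting error alone, a count of 0 allows up to 3 reads, or FPKM of 0.252 and 0.291 (controls) versus 0.671 and 0.439 (knockouts). It was not tested, and its 4 let-7 matches could not be set against a level. LIN28A, its homologue, was among the genes at 0 in every library.

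CD44, the hyaluronan receptor, was the most abundant member by mean. Its FPKM was 344 and 189 (controls) versus 391 and 223 (knockouts). The libraries numbered 1 were high and those numbered 2 were low in both groups, and the groups overlapped. Replicates differed 1.82-fold within the controls and 1.75-fold within the knockouts, far beyond the counting error of 1270 to 3409 reads. The log2 difference of 0.21 ± 0.52 (SE) was smaller than either gap and became −0.22 without control 2 and −0.19 without knockout 1. The values of CD44 fit whole reads at a transcript length of 4589 bases, an annotated transcript other than its longest (5732), so the choice of isoform sets its level.

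IGF2, the fetal growth factor whose mRNA gave the family its name, had no reads in either control and FPKM of 25.4 in knockout 1 and 1.30 in knockout 2. These are 0, 0, 115 and 9 reads. With 3 reads as the floor of each control, at most FPKM 0.287, knockout 1 was 88.5-fold and knockout 2 4.53-fold above that floor. The floor covers counting error alone. Since 49.4% of all genes tested were listed at 0 in some library, these folds are not firm lower bounds. From the lower ends of the knockouts' own counting intervals, FPKM 20.9 and 0.594, these folds were 72.8 and 2.07. The knockouts differed 19.5-fold from each other. The fitted log2 difference, 3.77 ± 2.79 (SE; limma adjusted p = 0.955), depends on the pseudocount and was 1.85 without knockout 1 and 5.69 without knockout 2. Of all genes tested, 5.44% had a fitted difference at least as large. IGF2 lies at chr11:2129112-2149603 on the minus strand, where 4 genes overlap it, IGF2-AS, INS-IGF2 and MIR483 among them, each listed at 0 in all libraries.

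EIF4EBP2 encodes a 4E-BP, which binds the cap-binding protein eIF4E and keeps it from the translation initiation complex. Its FPKM was 17.3 and 2.14 (controls) versus 2.04 and 9.11 (knockouts), from 272, 29, 12 and 82 reads. Each group held a high and a low library, 8.12-fold apart in the controls and 4.47-fold in the knockouts. The log2 difference of −0.47 ± 2.32 (SE) became 0.91 without control 1 and −1.85 without control 2, so its sign depended on single libraries. Its 3 pseudogenes were at 0.

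**Figure D3:**
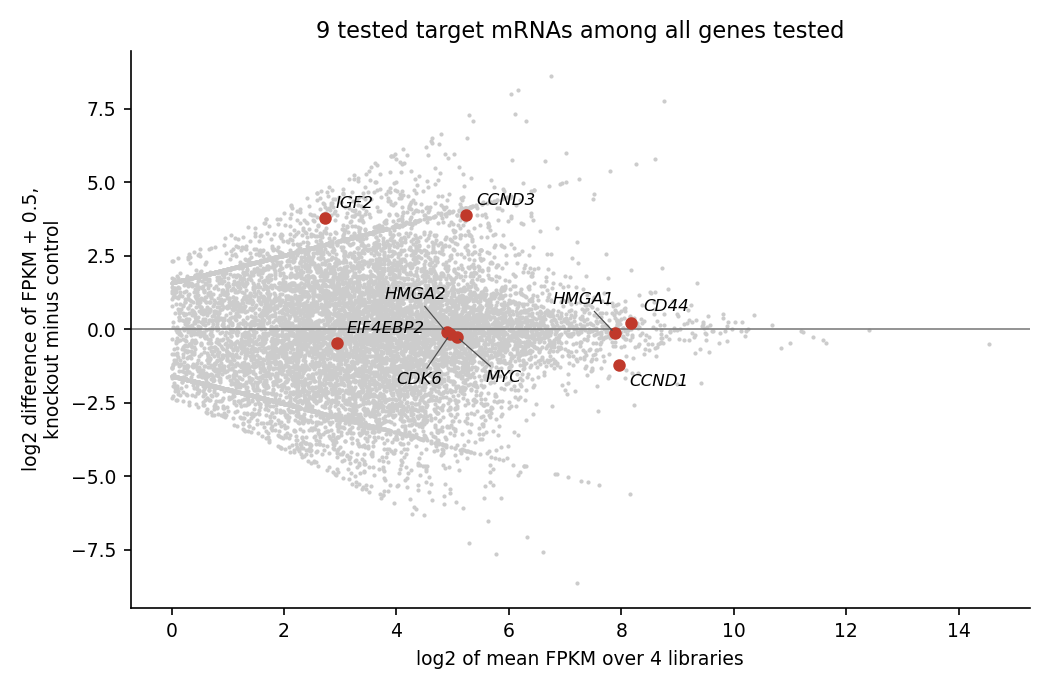
Fitted log2 difference (FPKM + 0.5, knockout minus control) against log2 of the mean FPKM for all 11463 genes tested (grey) and the 9 tested members (red). CCND3 and IGF2 lie in the upper part of the cloud at their levels. CCND1 lies at −1.23, and the remaining members lie between −0.47 and 0.21.

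Related genes, listed by their link to the members, had none past the threshold, in either direction. Among 23 other reported IGF2BP targets, 19 were tested, of which 9 were higher and 10 lower with a median log2 difference of −0.26, and 4 were apart upward and 2 downward, where 12.1% and 14.4% of all genes tested were. Large fitted differences were those of CD164, a sialomucin, at FPKM 0.0932 and 10.7 (controls) versus 20.6 and 17.2 (knockouts), and of the Hedgehog effector GLI1 at 0 in all but knockout 2 (9.37). For CD164 the low value of control 1 made most of the difference, which was 0.79 without that library. ACTB, the β-actin mRNA on which the zipcode-binding function of IGF2BP1 was described, was named after its values were seen. It had FPKM of 3952 and 3389 (controls) versus 2036 and 3472 (knockouts), with knockout 1 below both controls and knockout 2 between them.

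The 17 genes of the LIN28 and let-7 axis had 12 tested, split 6 to 6, with a median of 0.04. TUT7, a terminal uridylyl transferase acting on pre-let-7, had FPKM of 0 and 1.31 (controls) versus 28.4 and 10.3 (knockouts), and its paralog TUT4 had 12.9 and 18.1 against 4.63 and 8.40. CDC34, a ubiquitin-conjugating enzyme reported as a let-7 target, had 165 and 88.7 against 82.9 and 41.7. These pairs of groups did not overlap, and none passed (limma adjusted p = 0.955 for each). They are named for the largest fitted differences of the list. Of the 12 tested, 2 were apart upward and 2 downward, where 12.1% and 14.4% of all genes tested were.

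Of the partners of D cyclins and CDKs, all 16 were tested, 10 higher and 6 lower, with a median of 0.89. RB1, the pocket protein that cyclin D kinases inactivate, had FPKM of 0 and 8.95 (controls) versus 60.8 and 22.5 (knockouts). The log2 difference of RB1, 4.11, was 1.99 without control 1. CDKN1B, which encodes the inhibitor p27, had 0.348 and 0.201 against 1.85 and 39.8, and CDKN2D, which encodes the CDK4/6 inhibitor p19, had 3.58 and 32.7 against 0 in both knockouts. At an unadjusted p under 0.05 in limma stood 2 of the 16, where 3.91% of all genes tested did. These were RB1 and CDKN1A, the p21 gene, which was named after its values were seen (4.90 and 17.2 against 90.7 and 42.3). For this list 5 members were apart upward and 2 downward, where 12.1% and 14.4% of all genes tested were, and 6 of the 16 were at 0 in some library, as were 49.4% of all genes tested.

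Partners of MYC and HMGA were lower for 10 of 13 tested of 16, with a median of −0.31. MXD3, a MAX-binding repressor, was at FPKM 6.80 in control 2 and 0 elsewhere, ZBTB17, a zinc-finger partner of MYC, had 15.4 and 10.2 against 0.445 and 18.6, and MXD4 had 4.48 and 5.18 against 38.2 and 6.29. The difference of ZBTB17 rested on knockout 1, without which it turned from −1.62 to 0.55.

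Of 14 IGF receptor and binding protein genes, 9 were tested and 5 were higher, with a median of 0.16. IGF1R, the receptor through which IGF2 signals, had FPKM of 4.04 and 4.35 (controls) versus 16.9 and 15.0 (knockouts), with close replicates and groups apart. Its log2 difference of 1.81 ± 1.95 (SE; limma adjusted p = 0.955) stayed between 1.73 and 1.89 with 1 library left out. INSR had 4.34 and 5.07 against 0.138 and 3.06, and IGFBP5 was above 0 only in knockout 1 (7.93).

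Cap-binding and mTOR genes were higher for 8 of 12 tested of 13, with a median of 0.45, and CD44 and hyaluronan genes for 4 of 6 tested of 14, with a median of 0.32. EIF4A1, the helicase of the cap-binding complex, had FPKM of 0 and 16.1 (controls) versus 20.3 and 19.3 (knockouts), and was at 0.29 on the log2 scale without control 1. EIF4G3 had 1.87 and 38.4 against 39.8 and 25.4, and RPS6KB1, a kinase downstream of mTOR, had 39.0 and 9.17 against 14.6 and 0.441. HAS3, a hyaluronan synthase, had 20.1 and 22.4 against 26.0 and 78.7, HMMR, a hyaluronan-binding spindle protein, had 0.149 and 22.7 against 34.5 and 11.2, and NF2 had 144 and 135 against 57.9 and 147. Without control 1, EIF4G3 was at −0.27 and HMMR at −0.20, and without knockout 1 NF2 was at 0.07. HAS1, HAS2 and the splicing factors ESRP1 and ESRP2, which steer CD44 splicing in epithelia, were at 0 in all libraries.

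**Figure D4:**
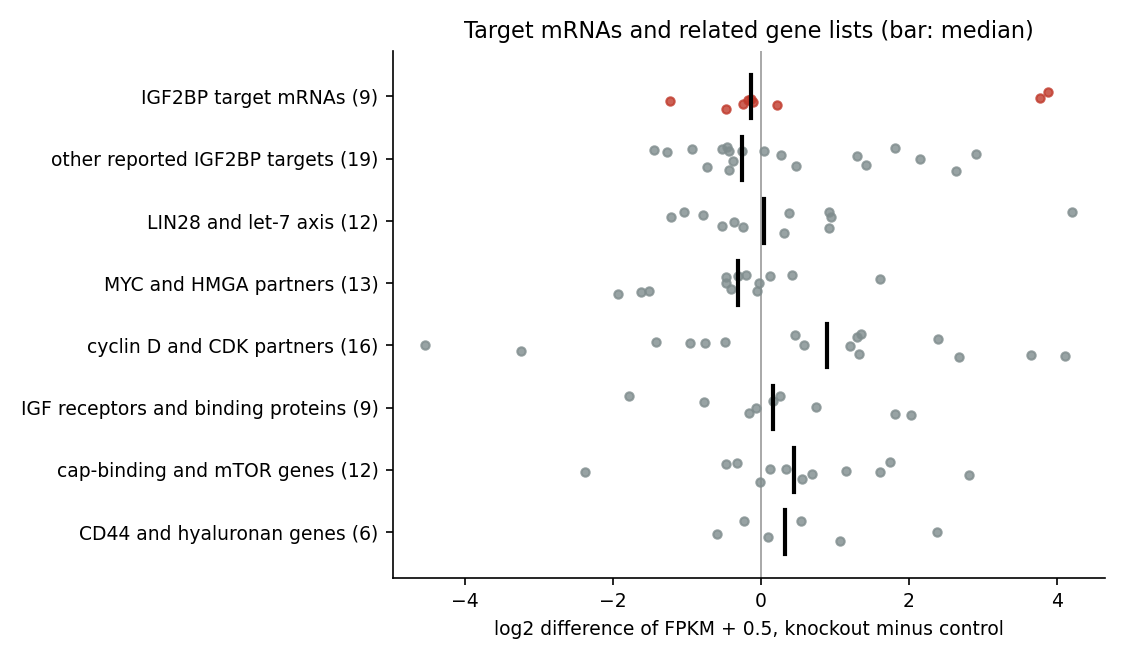
Fitted log2 difference (FPKM + 0.5, knockout minus control) of each tested gene in the IGF2BP target mRNAs (red) and 7 related lists (grey), with the number tested in brackets and the median as a bar. Medians lie between −0.31 (MYC and HMGA partners) and 0.89 (cyclin D and CDK partners), and single genes spread to both sides of 0 in every list.

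Replicates of the members were closer than those of most genes, with a median within-group SD of 0.66 on the log2 scale against 1.79 over all genes tested, and 8 of the 9 were above 0 in every library. The members sat at the 37.2 to 98.9 percentile of level among the genes tested (LIN28B was not tested), and the closeness was not tested as particular to them. The share of genes of like level with a smaller within-group SD was 1.37% for CDK6, 17.9% for HMGA2, 24% for HMGA1, 33.9% for EIF4EBP2 and 39.9% for IGF2. It was 51.9% for CCND3, 55.1% for CD44, 55.7% for MYC and 57.5% for CCND1.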

How the data were processed

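PolyA RNA of 4 T24 libraries, 2 control and 2 IGF2BP3 knockout, was sequenced after TruSeq preparation, per the labels' protocols. For each library the authors deposited FPKM per gene, counted with HTSeq (per the file names), in columns named input (per the file headers), and the submitters' processing notes name hg38. Aligner, annotation, strand setting and treatment of duplicates were not given in the sources used here. FPKM times transcript length (GENCODE 29) gave whole multiples of 1 read for 96.5 to 96.7% of genes above 0 (tolerance 0.0001 of the count). Where the longest transcript gave none, another annotated transcript did for 243 genes. Symbols matched GENCODE for 57980 genes. Intervals are exact Poisson (95%), and floors are 3 reads. They describe counting error alone, as amplified reads are not separate molecules.

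Genes whose FPKM averaged 1 or more were fitted with limma 3.58.1 in R 4.3.3 (lmFit, eBayes with trend) on log2(FPKM + 0.5), two-sided, threshold 0.05 after Benjamini-Hochberg adjustment over all genes. This scale understates changes of low genes. An exact permutation test of 2 libraries against 2 cannot give a p below 0.333 and was not used. The fit was tested on simulated reads, drawn around a shared mean per gene and group. They were not given the frequent zeros and wide replicate gaps of these libraries, so that test cannot show how the fit performs here. Members and lists were chosen with earlier results of these data known. Named are all members, the IGF2BP family, list genes past the threshold and up to 3 per list with the largest fitted difference. One gene the rule takes is left out of the text. Alternatives covered pseudocount, filter, scaling, moderation, biotype, threshold, replicate block, limma-voom on recovered reads and leaving out each library. Python 3.11.15 and matplotlib 3.10.9 drew the figures.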

Additional observations from a re-analysis of the deposited data

How the results depend on the processing

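No member passed the threshold in any alternative run. The count of 10 genes over all genes was 4 with upper-quartile scaling (which moved the median of all genes from −0.08 to −0.20), 0 without the trend in eBayes (415 at an unadjusted p under 0.05), 2 among protein-coding genes (fewer tested), 18 at an adjusted p of 0.1, and 0 in each fit without 1 library (752 to 1025 at an unadjusted p under 0.05). Those fits take the spread of a lone library to equal that of the group with both. With the replicate number as a replicate block it was 14, with 0 members called. The labels do not say that a number marks a shared culture, and the deviations of same-numbered libraries correlated at −0.004. The 3 members higher in the knockout were 5 under limma-voom and 3 to 6 with a library left out. Under limma-voom the log2 difference of MYC was 0.06 and that of HMGA2 was 0.04, and under quantile normalization that of EIF4EBP2 was 0.32, all reversed. The cause was not tested. With 1 library left out, ranges that crossed 0 were −1.67 to 1.17 for MYC, −0.45 to 0.18 for HMGA1, −0.67 to 0.46 for HMGA2, −0.22 to 0.64 for CD44, −1.85 to 0.91 for EIF4EBP2, −0.80 to 0.40 for IGF2BP2, −3.79 to 0.55 for ZBTB17, −0.27 to 3.77 for EIF4G3, −0.20 to 4.96 for HMMR and −1.26 to 0.07 for NF2. In the 11 alternatives with all 4 libraries CCND1 ranged from −1.38 to −1.07, CCND3 from 3.71 to 4.06 and IGF2, whose sign is fixed by its controls at 0, from 2.96 to 6.70. For low members a single read is a coarse step, worth FPKM 0.193 to 0.515 for CCND3. The number of genes above 0 did not follow depth. It was 8856 in control 1, the deepest library, 11433 in control 2, 7827 in knockout 1 and 11127 in knockout 2. The cause was not tested, and a low or 0 value in control 1 or knockout 1 is to be read with this in mind.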
